A study of Mus musculus with 12 samples.

Results

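The genes described here are 9 G protein-coupled receptors through which adipocytes sense metabolites and antilipolytic signals, namely Hcar1, Hcar2, Ffar2, Ffar4, Sucnr1, Adora1, Adora2a, Npy1r and Gpr84. They were found by matching their symbols to the gene count table, where all 9 were present among 20295 genes. RNA-seq was performed on mature white adipocytes (eWAs). Epididymal fat of lean male C57/BL6J mice was digested, the floating cells were collected, and hydrogel cultures of 50000 cells per well were treated after 2 days. The 4 groups had 3 libraries each. DMSO was the vehicle group, ISO was stimulated for 3 h with isoproterenol, an agonist of β-adrenergic receptors, Lip received lipase inhibitors, and Lip+ISO received both. Per the study's methods, the inhibitors were directed at the lipases ATGL and HSL. The methods list the inhibitor of HSL as directed at a further lipase, MGL, as well. The stimulus is taken to be ISO from the sample titles, although a figure legend of the study names a different lipolysis activator for these cells. The age of these mice, and whether cells of several mice were pooled, is not given in the sources used here.

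β-adrenergic agonists raise cAMP through the stimulatory G protein, and protein kinase A then activates lipolysis. Most of the receptors described here couple to the inhibitory G protein Gi, lower cAMP and restrain lipolysis when lactate, ketone bodies, short-chain fatty acids, succinate, adenosine or neuropeptide Y bind to them. Ffar4, a receptor for long-chain fatty acids that can also signal through Gq, and Adora2a, which couples to the stimulatory G protein and raises cAMP, are the members that differ most from this scheme.

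In the mm9 assembly used for the counts, Hcar1 lies at chr5:124326745-124330029 on the minus strand and its paralog Hcar2 at chr5:124313579-124315525 on the same strand, 11219 bp apart. Ffar2 lies at chr7:31603376-31608794 (minus strand), Ffar4 at chr19:38171569-38188753 (plus strand) and Sucnr1 at chr3:59885791-59891488 (plus strand). Adora1 lies at chr1:136095792-136132034 (minus strand), Adora2a at chr10:74779622-74797537 (plus strand), Npy1r at chr8:69221321-69230697 (plus strand) and Gpr84 at chr15:103138666-103140869 (minus strand). The span of Adora1 shares 2018 bp with Mybph on the opposite strand, and no strand setting is stated for the counting, but Mybph was listed at 0 counts in each of the 12 libraries. How reads matching both Hcar1 and Hcar2 were counted is not given in the sources used here.

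The promoter bases of 5 receptors are shown because 3 of them (Hcar1, Sucnr1 and Adora1) were lower with ISO in at least 1 comparison below, Ffar4 was lower with the inhibitors, and Ffar2 holds a searched motif. Each is the 250 bases before an annotated start, 5′ to 3′ on the strand of the gene, from RefSeq on GRCm38.p6, at chr5:123880004-123880253 (minus strand) for Hcar1, chr3:60081619-60081868 (plus strand) for Sucnr1, chr1:134235458-134235707 (minus strand) for Adora1, chr19:38096829-38097078 (plus strand) for Ffar4 and chr7:30823776-30824025 (minus strand) for Ffar2. Adora1 has 2 annotated starts and Ffar2 has 4, and the bases before 1 of them are shown for each. Capitals mark a match to the nuclear receptor motif AGGTCA, which reads TGACCT on the opposite strand.
Hcar1: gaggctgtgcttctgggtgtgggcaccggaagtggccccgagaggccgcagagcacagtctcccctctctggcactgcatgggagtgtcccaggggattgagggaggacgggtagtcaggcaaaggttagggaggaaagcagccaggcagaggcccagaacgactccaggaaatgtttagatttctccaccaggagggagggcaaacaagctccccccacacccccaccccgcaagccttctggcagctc
Sucnr1: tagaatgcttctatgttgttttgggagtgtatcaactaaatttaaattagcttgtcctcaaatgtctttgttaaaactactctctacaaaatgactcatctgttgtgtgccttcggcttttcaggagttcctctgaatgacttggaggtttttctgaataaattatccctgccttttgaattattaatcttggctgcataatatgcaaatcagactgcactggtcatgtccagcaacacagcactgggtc
Adora1: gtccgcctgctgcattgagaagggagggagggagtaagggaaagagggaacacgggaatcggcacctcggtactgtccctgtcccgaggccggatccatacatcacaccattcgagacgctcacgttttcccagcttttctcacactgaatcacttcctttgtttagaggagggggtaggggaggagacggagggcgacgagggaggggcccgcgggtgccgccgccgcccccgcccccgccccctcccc
Ffar4: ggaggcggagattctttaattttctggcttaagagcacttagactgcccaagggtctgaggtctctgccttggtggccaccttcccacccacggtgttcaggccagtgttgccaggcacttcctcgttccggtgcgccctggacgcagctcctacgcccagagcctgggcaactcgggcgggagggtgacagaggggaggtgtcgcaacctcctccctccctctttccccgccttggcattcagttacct
Ffar2: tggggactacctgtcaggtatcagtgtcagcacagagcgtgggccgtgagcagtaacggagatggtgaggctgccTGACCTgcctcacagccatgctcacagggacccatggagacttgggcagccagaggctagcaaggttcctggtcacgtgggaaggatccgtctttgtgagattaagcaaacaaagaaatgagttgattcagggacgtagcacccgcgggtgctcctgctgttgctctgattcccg

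Windows of 300 bases, from 250 before to 50 after the start, were matched for 7 of the 9 receptors. They were searched on both strands for the full cAMP response element TGACGTCA, found in 1.79% of all 32851 windows, its core TGACG, found in 20.8% and contained in the full element, the nuclear receptor motif AGGTCA, found in 16.3%, and the direct repeat of AGGTCA with 1 base between, found in 0.0396%. Hcar2 and Adora2a, the receptors that were higher with ISO in a comparison below, were not among the 7, so the search does not cover them. Neither cAMP response element motif was found in a window of the 7. AGGTCA was found in 3 of the 4 windows of Ffar2, in the printed one at bases -175 to -170 from the start. The other Ffar2 matches, at bases -89 to -84 and -142 to -137, are the same genomic bases in overlapping windows. AGGTCA was also found in the window of Gpr84 at bases -234 to -229. These are matches of letters, not binding sites.

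Library totals ranged from 22632220 to 43707557 counts, a 1.93-fold range, and levels are given as CPM, the count scaled to a library of 1000000 counts. On this scale, 3 counts corresponded to 0.0686 to 0.133 CPM. Adipocyte markers were abundant in each library. The sum of 10 markers was 41542 to 51862 CPM in DMSO (median 46424), 37411 to 49374 in ISO (37879), 39218 to 45969 in Lip (41036) and 35027 to 46949 in Lip+ISO (40525). The means of 9 of the 10 were lower in ISO than in DMSO, of which Pparg and Lep passed the test, and those of all 10 were lower in Lip than in DMSO, of which none passed. Markers of other cells were also present and several moved with ISO. The summed macrophage markers were 53.2 to 66.8 CPM in DMSO, 100 to 151 in ISO, 56.0 to 61.6 in Lip and 65.2 to 113 in Lip+ISO, with none of the 10 at 0 and 5 of the 9 tested higher in ISO than in DMSO. The 7 fibroblast and progenitor markers summed to 320 to 571 CPM in DMSO, 642 to 851 in ISO, 444 to 451 in Lip and 387 to 537 in Lip+ISO, and 3 of 7 were higher in ISO than in DMSO. The 8 endothelial markers summed to 107 to 199, 192 to 375, 55.1 to 180 and 78.4 to 230 CPM in the same order, with no marker passing the test. Of the 6 neutrophil markers in the table, of which Retnlg was at 0 in the DMSO libraries, the sums were 1.42 to 1.85, 2.77 to 4.32, 1.74 to 2.57 and 2.22 to 4.85 CPM. Of the 2 tested, S100a8 was higher in ISO than in DMSO. The 6 mural cell markers summed to 224 to 349, 277 to 397, 281 to 361 and 203 to 276 CPM. Among them, Pdgfrb was higher in ISO than in DMSO and Acta2 was lower in Lip+ISO than in Lip. The 6 mesothelial markers summed to 24.8 to 56.6, 65.3 to 75.6, 14.4 to 59.8 and 41.9 to 51.8 CPM, and 1 of them, Wt1, was higher in ISO than in DMSO and in Lip+ISO than in Lip. The 5 T cell markers in the table summed to 0.042 to 0.235, 0.0452 to 0.572, 0.24 to 0.483 and 0.606 to 1.15 CPM, with Cd8a at 0 in ISO and no marker passing. Of 6 eosinophil markers, Epx alone was tested and was higher with ISO in both comparisons (mean 0.0105 CPM in DMSO and 6.65 in ISO), while the other 5 had means of at most 0.341 CPM in any group. The part of these cells in the receptor results was not tested.

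Per length, the receptors fell into 4 levels in DMSO (TMM-scaled CPM per kilobase of counted exon). Hcar1 (15.1 ± 0.359, SD, n = 3), Sucnr1 (14.7 ± 1.23), Hcar2 (12.4 ± 1.74) and Ffar2 (10.2 ± 2.55) were highest, and each overlapped the next in this order. Ffar4 (5.20 ± 0.259) and Adora1 (3.84 ± 1.07) came next and overlapped each other, followed by Adora2a (1.63 ± 0.291). Npy1r (0.0648 ± 0.0663) and Gpr84 (0.0394 ± 0.0118) were far below the others. With ISO the order changed, as Hcar2 (24.1 ± 3.87 on the same scale) stood clear of the next receptor, Sucnr1 (11.2 ± 2.19), which overlapped Hcar1 (7.80 ± 1.36). In Lip, Hcar1 (10.3 ± 1.35), Sucnr1 (9.22 ± 1.47), Ffar2 (8.23 ± 2.01) and Hcar2 (7.84 ± 1.11) overlapped in turn. In Lip+ISO, Hcar2 (10.1 ± 1.73) was above Hcar1 (7.11 ± 1.59) by a narrow margin. The lowest Hcar2 library was at 8.58 and the highest Hcar1 library at 8.47. Adora2a (2.96 ± 0.874) was above Adora1 (1.69 ± 0.394), with 1 Adora1 library reaching above the lowest Adora2a library.

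**Figure D1:**
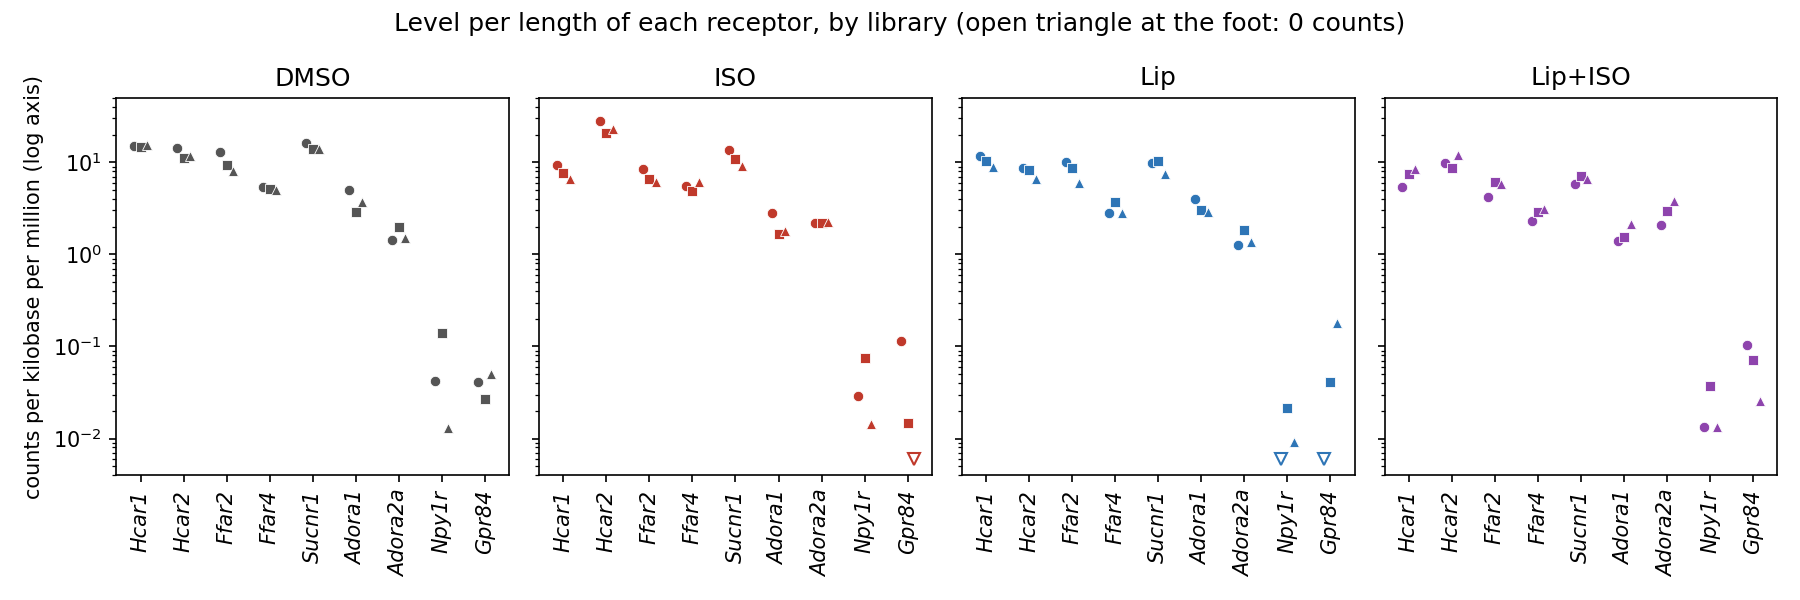
Level of each receptor per length in each library, in TMM-scaled CPM per kilobase of counted exon on a log axis, with 1 panel per group and circles, squares and triangles for replicates 1, 2 and 3. Open triangles at the foot mark libraries with 0 counts, which were 1 of Npy1r and 2 of Gpr84, and the Hcar2 points stand above all other receptors in ISO.

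Of the 9 receptors, 7 had enough counts to be tested, and Npy1r and Gpr84 did not. At an adjusted p at or under 0.05 in edgeR, 1 of the 7 was higher in ISO than in DMSO (Hcar2), where 12.3% of all 13543 tested genes were higher, and 2 were lower (Hcar1 and Adora1), where 13.9% of all tested genes were lower. A block for the replicate number brought the lower receptors to 4, against 19.6% of all tested genes. In Lip+ISO against Lip, 1 was higher (Adora2a, against 11.5% of all tested genes) and 3 were lower (Hcar1, Sucnr1 and Adora1, against 15.8%), or 4 with the block (20.1%). In Lip+ISO against ISO, none was higher (4.36%) and 3 were lower (Hcar2, Ffar4 and Sucnr1, against 4.59%). In Lip against DMSO none passed in edgeR, where 0.00738% of all tested genes were higher and 0.0443% lower, while DESeq2 called 3 lower (0.259% of genes in that test). When the log2 fold change also had to reach 1 in either direction, none of the 7 passed in ISO against DMSO (7.48% of all tested genes in either direction) or Lip+ISO against Lip (7.35%), and Hcar2 was lower in Lip+ISO against ISO (1.2%). The median log2 fold change of the 7 receptors was -0.40 for ISO against DMSO, -0.50 for Lip+ISO against Lip, -0.55 for Lip against DMSO and -0.39 for Lip+ISO against ISO, and that of all tested genes lay between -0.01 and 0.00 in these 4 comparisons. The comparisons share libraries, so they are not independent of each other. In these whole-culture libraries, fewer cells of a type and less RNA per cell cannot be told apart.

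**Figure D2:**
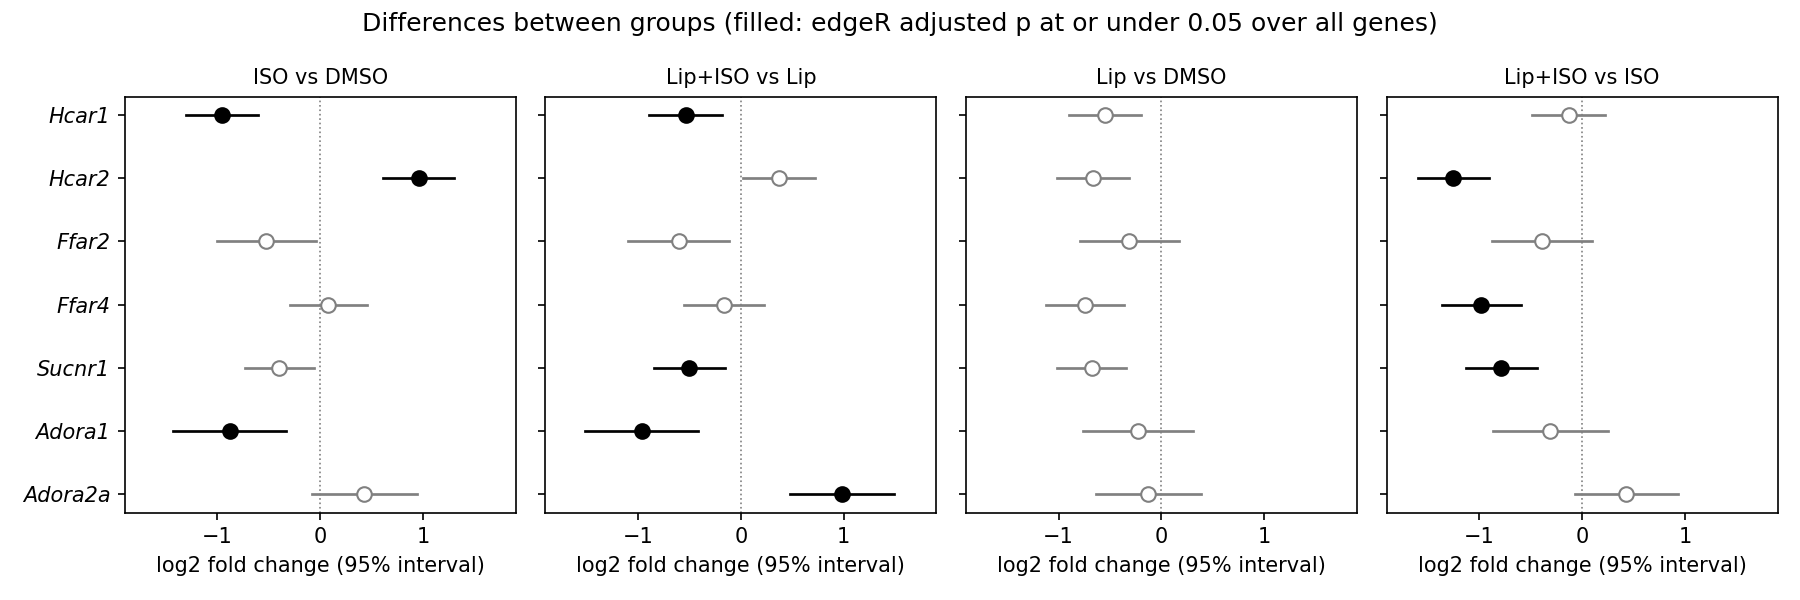
Log2 fold change of the 7 tested receptors in 4 comparisons, with 95% intervals from the edgeR fit, where filled circles mark receptors that passed the test. Filled circles stand on both sides of 0 for ISO against DMSO and for Lip+ISO against Lip, on the left alone for Lip+ISO against ISO, and are missing for Lip against DMSO.

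Hcar1, the lactate receptor of adipocytes, fell with ISO. Its level was 49.4, 48.7 and 51.0 CPM in DMSO replicates 1 to 3, 30.4, 24.9 and 21.5 CPM in ISO, 38.5, 33.8 and 29.6 CPM in Lip, and 17.6, 24.6 and 27.8 CPM in Lip+ISO. The DMSO libraries lay close together and above all others, and the ISO and Lip+ISO libraries overlapped. The level was 1.94-fold lower in ISO than in DMSO (log2 fold change -0.96 ± 0.16, SE, edgeR adjusted p = 0.000985), and this call was lost in none of the 15 fits with 1 library or 1 replicate number left out. In the presence of inhibitors the difference was smaller in size (Lip+ISO against Lip, log2 fold change -0.54 ± 0.16; edgeR adjusted p = 0.0262). The latter call was lost without Lip replicate 1 (adjusted p = 0.119), Lip replicate 2 (0.0566), Lip+ISO replicate 1 (0.0846), Lip+ISO replicate 2 (0.0502), all libraries of replicate 1 (0.191) or all of replicate 2 (0.153). The ISO responses without and with inhibitors differed by 0.42 on the log2 scale with a 95% interval from -0.08 to 0.92, and this difference did not pass (edgeR adjusted p = 0.457). The comparison of Lip+ISO with ISO did not pass (log2 fold change -0.13, 95% interval -0.49 to 0.22; edgeR adjusted p = 0.674).

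Hcar2, the receptor for niacin and the ketone body β-hydroxybutyrate, moved in the opposite direction. It measured 28.0, 21.7 and 22.7 CPM in DMSO, 55.1, 40.4 and 45.1 CPM in ISO, 17.0, 16.0 and 12.8 CPM in Lip, and 19.0, 16.7 and 23.3 CPM in Lip+ISO. The 3 ISO libraries were the highest, and the Lip and Lip+ISO libraries overlapped. Hcar2 was 1.94-fold higher in ISO than in DMSO (log2 fold change 0.96 ± 0.16; edgeR adjusted p = 0.00087) and 2.38-fold lower in Lip+ISO than in ISO (log2 fold change -1.25 ± 0.16; edgeR adjusted p = 0.000408). Neither call was lost in any of the 15 fits with libraries left out. Between Lip+ISO and Lip the log2 fold change was 0.37 (95% interval 0.02 to 0.72) and did not pass (edgeR adjusted p = 0.119). The difference between the ISO responses with and without inhibitors was -0.59 ± 0.23 on the log2 scale and did not pass either (edgeR adjusted p = 0.267). Hcar2 is also known in macrophages and neutrophils, whose summed markers were higher in each ISO library than in any DMSO library (100 to 151 against 53.2 to 66.8 CPM for macrophages), and their part in this result was not tested. Between Lip+ISO and ISO, 9 of the 10 macrophage markers had lower means in Lip+ISO and 1 a higher mean, and none passed the test. Of the 6 neutrophil markers, 3 had lower and 3 had higher means in Lip+ISO, and none of the 2 tested passed. Of the 7 fibroblast and progenitor markers, 6 had lower means in Lip+ISO and 1 a higher mean, and 3 passed as lower.

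**Figure D3:**
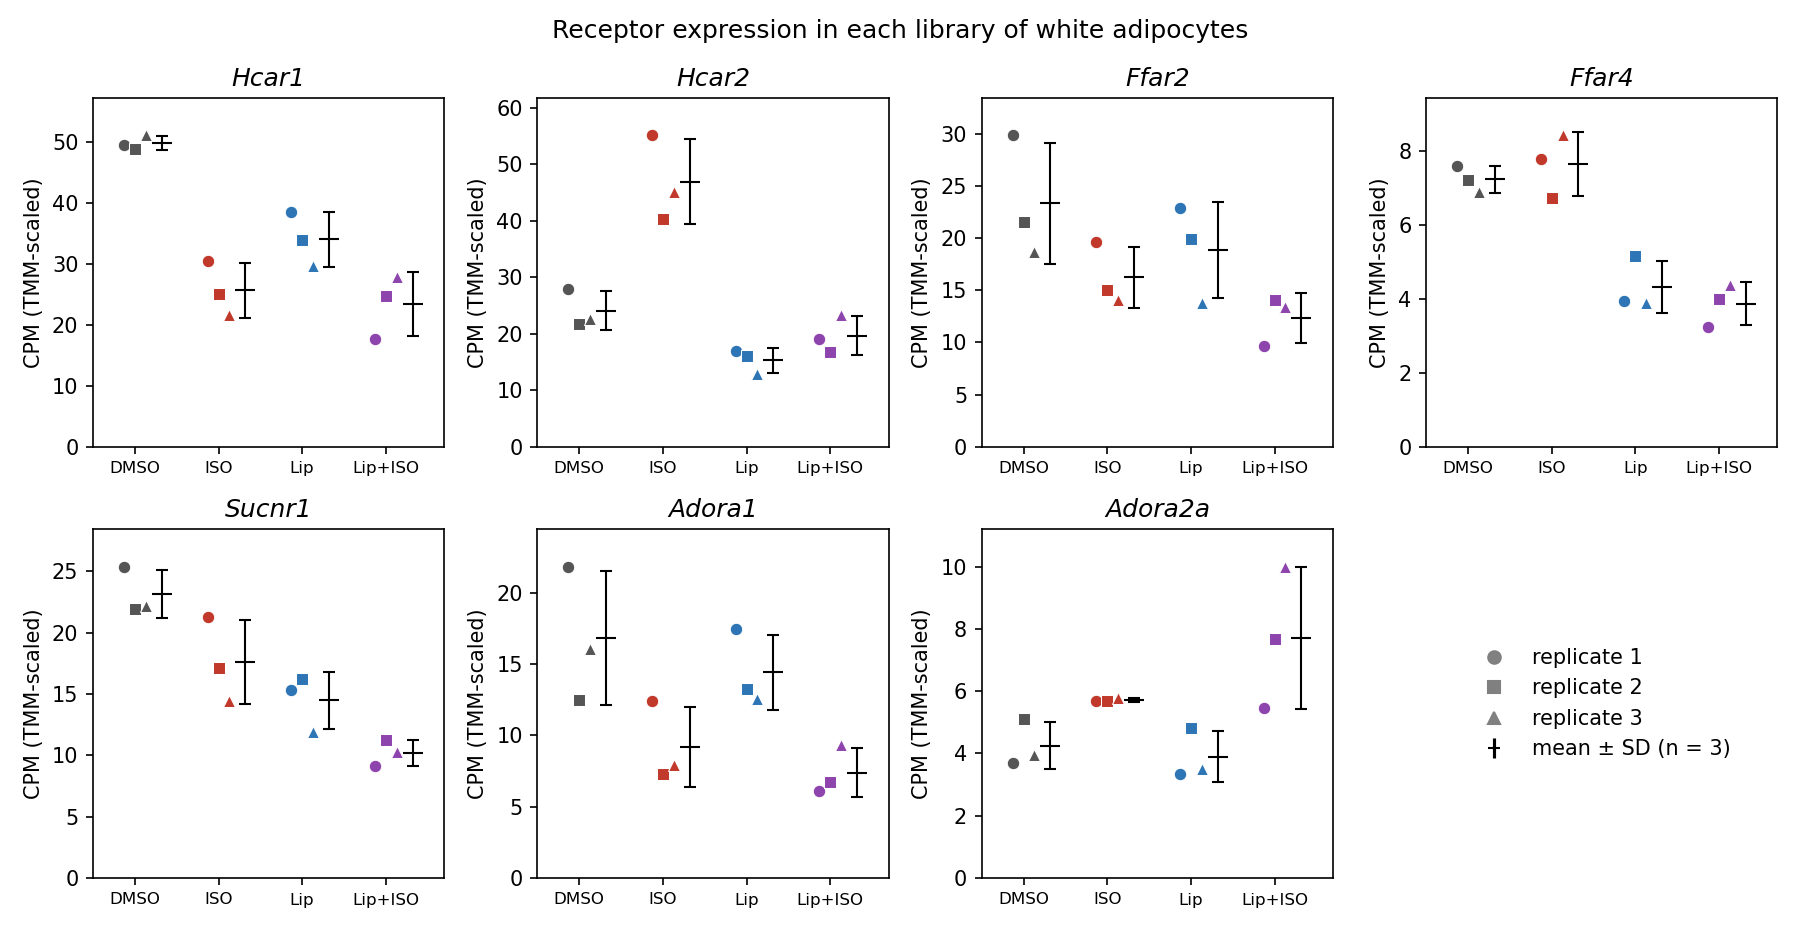
CPM of the 7 tested receptors in each library, scaled by TMM, with 1 panel per receptor, a linear axis from 0, symbols for the replicate number and bars for the mean and SD (n = 3). Hcar1 is highest in DMSO, with libraries from 48.7 to 51.0 CPM, Hcar2 is highest in ISO, with libraries from 40.4 to 55.1 CPM, and Adora2a reaches its highest value, 10.0 CPM, in Lip+ISO.

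Within each library, the ratio of Hcar2 to Hcar1, per length, turned over with ISO. It was 0.955, 0.751 and 0.750 in DMSO replicates 1 to 3 and 0.744, 0.798 and 0.732 in Lip, so that Hcar1 was the more abundant of the pair in all 6 libraries without ISO. In ISO the ratio was 3.06, 2.73 and 3.54, and in Lip+ISO 1.82, 1.14 and 1.42. Hcar2 was thus the more abundant in all 6 libraries with ISO, and the ISO and Lip+ISO libraries did not overlap. Of 4 tested genes within 100 kb of the pair, Kntc1 (log2 fold change 1.39, edgeR adjusted p = 0.0173) and Denr (0.23, edgeR adjusted p = 0.0251) were higher in ISO than in DMSO, and Ccdc62 and Hip1r did not pass. None of the 4 passed in the other comparisons.

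**Figure D4:**
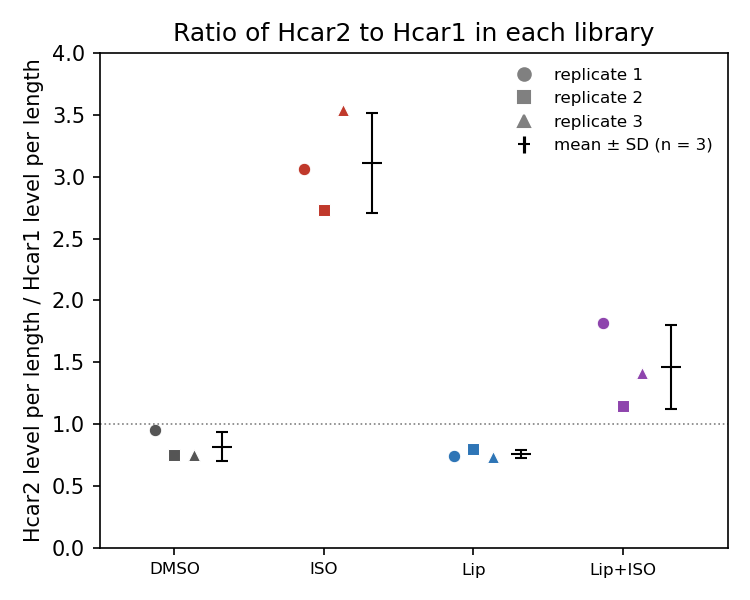
Ratio of the Hcar2 level to the Hcar1 level per length in each library (no unit, linear axis from 0), with symbols for the replicate number, bars for the mean and SD (n = 3) and a dotted line at a ratio of 1. The DMSO and Lip libraries lie under the line, at 0.732 to 0.955, and the ISO and Lip+ISO libraries lie above it, at 1.14 to 3.54.

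Ffar2, a receptor for acetate and other short-chain fatty acids, had lower means with ISO, but its groups overlapped in each of the 4 comparisons. It measured 29.9, 21.5 and 18.6 CPM in DMSO, 19.6, 15.1 and 14.1 CPM in ISO, 22.9, 19.9 and 13.8 CPM in Lip, and 9.62, 14.1 and 13.4 CPM in Lip+ISO. In both DMSO and Lip, replicate 1 was the highest library and replicate 3 the lowest. Ffar2 was not called in ISO against DMSO (log2 fold change -0.53, 95% interval -1.01 to -0.04; edgeR adjusted p = 0.0997), and it passed with replicate number blocked (-0.52; edgeR adjusted p = 0.0473). Nor was it called in Lip+ISO against Lip (-0.61, 95% interval -1.09 to -0.12; edgeR adjusted p = 0.0644). This comparison passed with the block (edgeR adjusted p = 0.0382), with library totals alone in place of TMM (edgeR adjusted p = 0.0238) and in DESeq2 (adjusted p = 0.0468). It also passed without DMSO replicate 1 (edgeR adjusted p = 0.0482), Lip replicate 3 (0.0219) or all libraries of replicate 3 (0.0408). It did not pass in Lip against DMSO or Lip+ISO against ISO.

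Ffar4, the receptor for long-chain fatty acids, was lower in the libraries with inhibitors. Its level was 7.61, 7.22 and 6.89 CPM in DMSO, 7.79, 6.74 and 8.43 CPM in ISO, 3.95, 5.15 and 3.90 CPM in Lip, and 3.23, 4.00 and 4.37 CPM in Lip+ISO. All 6 libraries with inhibitors were below all 6 without. The level was 1.97-fold lower in Lip+ISO than in ISO (log2 fold change -0.98 ± 0.18; edgeR adjusted p = 0.00422), and the call was lost without all libraries of replicate 1 (adjusted p = 0.0587) or of replicate 3 (0.063). In Lip against DMSO the log2 fold change was -0.74 (95% interval -1.12 to -0.36) and did not pass in edgeR (adjusted p = 0.341), while DESeq2 called it (-0.75, adjusted p = 0.02). ISO against DMSO gave 0.08 (95% interval -0.30 to 0.45; edgeR adjusted p = 0.769), and Lip+ISO against Lip gave -0.16 (95% interval -0.55 to 0.22; edgeR adjusted p = 0.564).

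Gpr84, a receptor for medium-chain fatty acids that is known from myeloid cells, was at the limit of detection. It had 5 counts over the 3 libraries of DMSO, 5 in ISO, 12 in Lip and 8 in Lip+ISO, and 10 of the 12 counts in Lip came from replicate 3. Each group held at least 1 library at or under 3 counts, so no difference was detectable at this depth.

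Sucnr1, the receptor for the citric acid cycle metabolite succinate, was lowest where both treatments were given. Its level was 25.4, 21.9 and 22.2 CPM in DMSO, 21.3, 17.1 and 14.4 CPM in ISO, 15.3, 16.3 and 11.9 CPM in Lip, and 9.13, 11.2 and 10.3 CPM in Lip+ISO. The DMSO libraries were above all others and the Lip+ISO libraries below all others. Sucnr1 was 1.72-fold lower in Lip+ISO than in ISO (log2 fold change -0.78 ± 0.16; edgeR adjusted p = 0.00828), a call that was lost without all libraries of replicate 1 (adjusted p = 0.102) or of replicate 2 (0.0762). It was also lower in Lip+ISO than in Lip (-0.50 ± 0.16; edgeR adjusted p = 0.0332). That call was lost without Lip replicate 1 (adjusted p = 0.115), Lip replicate 2 (0.116), Lip+ISO replicate 1 (0.106), Lip+ISO replicate 3 (0.0778), all libraries of replicate 1 (0.197) or all of replicate 2 (0.185). ISO against DMSO gave -0.40 (95% interval -0.73 to -0.06), which did not pass (edgeR adjusted p = 0.0781). It passed with replicate number blocked (-0.41; edgeR adjusted p = 0.0283), with library totals alone in place of TMM (edgeR adjusted p = 0.0466) and without ISO replicate 1 (-0.55; edgeR adjusted p = 0.0244). Lip against DMSO gave -0.68 (95% interval -1.02 to -0.34), which did not pass in edgeR (adjusted p = 0.297) and passed in DESeq2 (-0.68, adjusted p = 0.0192).

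Adora1, the adenosine receptor that couples to Gi, fell with ISO with and without inhibitors. It measured 21.8, 12.5 and 16.1 CPM in DMSO, 12.4, 7.26 and 7.91 CPM in ISO, 17.4, 13.3 and 12.6 CPM in Lip, and 6.06, 6.74 and 9.33 CPM in Lip+ISO. The highest ISO library lay just under the lowest DMSO library, and the Lip+ISO libraries lay clear of Lip. Adora1 was 1.84-fold lower in ISO than in DMSO (log2 fold change -0.88 ± 0.25; edgeR adjusted p = 0.0214) and 1.95-fold lower in Lip+ISO than in Lip (-0.96 ± 0.25; edgeR adjusted p = 0.0127). The first call was lost without DMSO replicate 1 (adjusted p = 0.109), ISO replicate 2 (0.094), ISO replicate 3 (0.0799), all libraries of replicate 2 (0.0793) or all of replicate 3 (0.138). The second was lost without Lip replicate 1 (adjusted p = 0.0616), Lip+ISO replicate 2 (0.05004) or all libraries of replicate 2 (0.0668). The ISO responses without and with inhibitors differed by -0.08 on the log2 scale, with a wide 95% interval from -0.85 to 0.69 (edgeR adjusted p = 0.951).

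Adora2a, the adenosine receptor that raises cAMP, was higher with ISO where inhibitors were present. It measured 3.69, 5.12 and 3.95 CPM in DMSO, 5.68, 5.70 and 5.79 CPM in ISO, 3.33, 4.83 and 3.51 CPM in Lip, and 5.45, 7.67 and 10.0 CPM in Lip+ISO. The ISO libraries were nearly equal to each other, the Lip+ISO libraries spread widely, and both groups lay above their controls. The level was 1.98-fold higher in Lip+ISO than in Lip (log2 fold change 0.99 ± 0.23; edgeR adjusted p = 0.00671), and the call was lost without all libraries of replicate 3 (0.68; adjusted p = 0.146). In ISO against DMSO the log2 fold change was 0.43 (95% interval -0.08 to 0.94) and did not pass (edgeR adjusted p = 0.194). The difference between these responses was 0.56 (95% interval -0.16 to 1.27; edgeR adjusted p = 0.5), so a larger response with inhibitors was not shown. Adora2a is also known in leukocytes and endothelial cells. All 10 macrophage markers and all 8 endothelial markers had higher means in Lip+ISO than in Lip. Of these, 2 of the 9 tested macrophage markers (Csf1r and Itgam) and none of the 8 endothelial markers passed the test. The part of such cells in the Adora2a result was not tested.

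Npy1r, the receptor for neuropeptide Y and peptide YY that couples to Gi, had 15 counts over the 3 libraries of DMSO, 13 in ISO, 3 in Lip and 5 in Lip+ISO. In both DMSO and ISO, 10 of these counts came from replicate 2. When the filter on low counts was left out, the lowest edgeR adjusted p of Npy1r or Gpr84 over all comparisons was 0.688.

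The inhibitors without ISO gave the same direction for all 7 tested receptors, each of which had a log2 fold change under 0, as had 49.4% of all tested genes. The 10 adipocyte markers also had lower means in Lip than in DMSO (median log2 fold change -0.14, against -0.55 for the receptors), and the part of this shift in the receptor values was not tested. None passed in edgeR, and 4 had an unadjusted p under 0.05 (Hcar1, Hcar2, Ffar4 and Sucnr1), as did 4.3% of all tested genes. The Lip libraries of these 4 lay below their DMSO libraries without overlap, as did those of 5.23% of all tested genes. DESeq2 called Hcar2 (log2 fold change -0.67, adjusted p = 0.0416), Ffar4 and Sucnr1. In ISO against DMSO, 2 receptors were higher (Hcar2 and Adora2a, against 20.7% of all tested genes) and 3 lower (Hcar1, Sucnr1 and Adora1, against 22.6%) without overlap of the groups. In Lip+ISO against Lip, 1 was higher (17.2%) and 3 lower (22%) without overlap, and in Lip+ISO against ISO 3 were lower (13.5%). No receptor passed the test of the difference between the ISO responses with and without inhibitors in edgeR or DESeq2, where edgeR called 1.62% of all tested genes. Of the 7 receptors, 1 (Hcar2) had an unadjusted p under 0.05 in edgeR, as did 13.8% of all tested genes.

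The profiles over the 12 libraries were compared with those of 11915 other genes by the root mean square difference of log2 CPM centered on each gene's mean, a measure with no test here. The genes most alike Hcar1 were Akap1 (0.19 log2 units) and Acvr1c (0.19), and Acvr1c (0.17) was also the nearest to Adora1, followed by Kcns3 (0.17). Nearest to Hcar2 were Pim3 (0.20) and Baiap2 (0.21), and nearest to Ffar4 were Dhrs3 (0.19) and Nrip1 (0.20). Nearest to Sucnr1 were Tmem216 (0.16) and Rxrg (0.17), and nearest to Adora2a was Sepp1 (0.15). For comparison, the median difference over all genes searched was 0.50 to 0.68, by receptor.

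Genes that make, move or pass on the signals of these receptors were examined in 9 lists of 94 genes, of which 79 were tested. In ISO against DMSO, 14 of the 79 were higher (17.7%, against 12.3% of all tested genes) and 5 lower (6.33%, against 13.9%). In Lip+ISO against Lip, 12 were higher (15.2%, against 11.5%) and 8 lower (10.1%, against 15.8%). In Lip+ISO against ISO, 1 was higher (1.27%, against 4.36%) and 6 lower (7.59%, against 4.59%), and in Lip against DMSO none passed. The list counts for ISO against DMSO that follow stand beside the same 12.3% higher and 13.9% lower. Of 7 lactate genes, 4 were higher in ISO than in DMSO (57.1%) and none lower, and those with the largest changes were the monocarboxylate transporter genes Slc16a3 (10.6 ± 3.53 to 28.2 ± 6.64 CPM) and Slc16a1 (144 ± 6.79 to 288 ± 11.6 CPM) and the lactate dehydrogenase gene Ldha (814 ± 45.3 to 1083 ± 46.5 CPM). With inhibitors added to ISO, both transporter genes decreased (Slc16a3 log2 fold change -0.92 and Slc16a1 -0.37; edgeR adjusted p = 0.0479 and 0.0108). The 2 transporter genes were 28.6% of the list, against 4.59% of all tested genes. Their direction with ISO was opposite to that of Hcar1, the lactate receptor.

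Of 9 tested adenosine genes, 4 were higher in ISO than in DMSO (44.4%, against 12.3% of all tested genes) and none lower. They included the ectonucleotidases Entpd1 (2.05 ± 0.99 to 6.48 ± 1.67 CPM) and Enpp1 (5.84 ± 2.64 to 16.8 ± 4.86 CPM) and adenosine deaminase, Ada (4.39 ± 0.548 to 10.5 ± 1.60 CPM). In Lip+ISO against Lip, none of the 9 passed in either direction. With inhibitors added to ISO, Enpp1 (log2 fold change -1.21) and Ada (-1.04) decreased (edgeR adjusted p = 0.0436 and 0.0284). This was 22.2% of the list, against 4.59% of all tested genes. Of the 6 ketone body genes, Bdh1, which interconverts the ketone bodies, was higher in Lip+ISO than in Lip (0.857 ± 0.474 to 3.06 ± 0.983 CPM). In this comparison 16.7% of the list was higher and 16.7% lower, against 11.5% and 15.8% of all tested genes. None of the 9 succinate genes and none of the 2 tested neuropeptide Y genes passed in these comparisons.

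Among 8 tested receptors of related kinds, 3 were higher in ISO than in DMSO (37.5%, against 12.3% of all tested genes) and none lower. These were Gpr35 (2.28 ± 1.06 to 9.68 ± 0.192 CPM), the adenosine receptor gene Adora2b (0.890 ± 0.225 to 2.28 ± 0.177 CPM) and the cannabinoid receptor gene Cnr1 (7.59 ± 0.911 to 13.8 ± 0.355 CPM). In Lip+ISO against Lip, Gpr35 and Cnr1 were higher (25% of the list, against 11.5% of all tested genes). Ptger3, a Gi-coupled prostaglandin E receptor, was lower (18.9 ± 2.79 to 11.5 ± 0.89 CPM), which was 12.5% of the list against 15.8% of all tested genes. Downstream, 3 of 20 tested G protein subunit genes passed in ISO against DMSO. Gnai3 was higher (log2 fold change 0.19), which was 5% of the list, and Gnai1 (-0.27) and Gnaq (-0.46) were lower, which was 10% of the list against 13.9% of all tested genes. The adenylate cyclase genes moved in both directions, with Adcy3 higher (23.8 ± 4.67 to 63.3 ± 5.02 CPM), Adcy7 higher (5.76 ± 1.47 to 13.3 ± 3.66 CPM) and Adcy6 lower (342 ± 23.6 to 225 ± 14.3 CPM) in ISO than in DMSO, out of 11 genes of cAMP synthesis and breakdown. Of 7 genes of receptor desensitization, Arrb1, an arrestin, was lower in ISO than in DMSO (85.7 ± 2.68 to 65.5 ± 4.20 CPM), which was 14.3% of the list. In Lip+ISO against Lip, Arrb1, Arrb2 and the receptor kinase gene Adrbk1 were lower (42.9% of the list, against 15.8% of all tested genes) and none was higher.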

How the data were processed

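RNA-seq was analyzed in 12 libraries of 3D-cultured mouse white adipocytes. Per the study's methods and the submitters' processing notes, the authors mapped reads to mm9 with STAR 2.4.2a and counted them per gene with HOMER and iRNA-seq, with 1 read accepted per position and read length, which can compress high counts. The deposited table holds raw counts per gene, without normalization, and the length of the counted exons in base pairs. Sample titles gave the groups and replicate numbers. All 12 columns of counts were used. No replicate pair agreed within sampling noise. The study describes 3 independent experiments. Nothing in the labels says which libraries share an experiment, so p-values measure the spread between these libraries.

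Counts were tested with edgeR 4.0.16 (R 4.3.3). The filter filterByExpr kept 13543 of 20295 genes. TMM factors ranged from 0.924 to 1.07. The quasi-likelihood fit used all 12 libraries with a mean for each group (common biological coefficient of variation 0.163). The 4 comparisons of groups and the difference between the ISO responses were tested two-sided, with Benjamini-Hochberg adjustment over the genes tested. A gene passed at an adjusted p at or under 0.05 with any fold change. CPM are scaled by TMM, and log2 CPM used a prior count of 2. Counting floors and intervals cover counting error or the spread between libraries only. The procedure was tested on simulated data.

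Libraries with the same replicate number deviated together from their group means (r between 0.0373 and 0.369, over 0.1 in 17 of 18 pairs). All 3 pairs were over 0.1 for ISO against DMSO, Lip+ISO against Lip and Lip against DMSO, and 2 of 3 for Lip+ISO against ISO, so values with the replicate number as a block are given beside the first 3 where they change a call. The pairing comes from these correlations and not from the labels. Alternatives were DESeq2 1.42.0, library totals alone, no filter, a minimum log2 fold change of 1, fits of the compared groups alone, the span as the gene length, and leaving out libraries.

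All 9 receptors are named. From the pathway lists, at most 3 genes per list and comparison are named, those with the largest changes among the ones that passed, and for each receptor that passed, the 2 genes with mean CPM of at least 1 and the most similar profile. The 4 genes beside Hcar1 and Hcar2 were added by position, and cell markers that passed are named where they bear on a receptor. Some genes that this rule names are not reported here. The receptors and lists were chosen with earlier results of these data known.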

Additional observations from a re-analysis of the deposited data

How the results depend on the processing

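Hcar1 and Hcar2 in ISO against DMSO and Hcar2 in Lip+ISO against ISO kept their direction and call under every alternative fit with no minimum fold change. With a minimum log2 fold change of 1, 0 receptors passed in either direction in ISO against DMSO, 0 in either direction in Lip+ISO against Lip and 1 (Hcar2) was lower in Lip+ISO against ISO. With the replicate number as a block, 4 were lower in ISO against DMSO, and beyond Ffar2 and Sucnr1, described above, the block changed no call of a receptor (Hcar2, difference between the ISO responses, edgeR adjusted p = 0.0929). Every library correlated best with those of its own number. With the compared groups alone, 1 was lower in Lip+ISO against Lip, as Hcar1 (edgeR adjusted p = 0.064) and Sucnr1 (0.0606) no longer passed. DESeq2 called 3 lower in Lip against DMSO, and in Lip+ISO against Lip also Ffar2 (-0.58, adjusted p = 0.0468). With library totals alone, Ffar2 in Lip+ISO against Lip (edgeR adjusted p = 0.0238) and Sucnr1 in ISO against DMSO (0.0466) passed. The cause of these changes was not tested. Over the 15 fits that left out libraries, the number passing was 1 to 1 higher and 1 to 3 lower in ISO against DMSO, 0 to 1 higher and 0 to 4 lower in Lip+ISO against Lip, and 1 to 3 lower in Lip+ISO against ISO. In those fits, some differences that did not pass changed sign, namely Hcar1 in Lip+ISO against ISO (-0.38 to 0.18), Ffar4 in ISO against DMSO (-0.032 to 0.16), Adora1 (-0.40 to 0.012) and Adora2a (-0.31 to 0.017) in Lip against DMSO, Adora1 in Lip+ISO against ISO (-0.60 to 0.094), and the difference between the ISO responses for Ffar2 (-0.30 to 0.18), Sucnr1 (-0.32 to 0.11) and Adora1 (-0.44 to 0.25). Over all genes, edgeR called 7 in Lip against DMSO, 1211 in Lip+ISO against ISO and 220 for the difference between the ISO responses, against 27, 2607 and 898 with the block, and DESeq2 called 57 and 579 for the first and last of these. Fits of the compared groups alone called 11 and 744 for the first and second, and 14 genes were called in Lip against DMSO with no filter. The minimum log2 fold change of 1 left 1013 of 3548 in ISO against DMSO, 996 of 3702 in Lip+ISO against Lip, 3 of 7 in Lip against DMSO, 269 of 1211 in Lip+ISO against ISO and 101 of 220 for the difference between the ISO responses. Library totals alone gave 1365 higher and 2329 lower calls in ISO against DMSO (1670 and 1878 with TMM) and 1069 and 2968 in Lip+ISO against Lip (1562 and 2140 with TMM), where the median log2 fold change of all genes moved to -0.12. Of 36 mean levels, 21 moved by more than their SD when the span replaced the counted length. Depth limits Npy1r and Gpr84.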
